A study of Mus musculus with 2 samples.

Results

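The genes described here are 9 members of the autonomic receptor system of the heart: the β-adrenergic receptors Adrb1 and Adrb3, the α1-adrenergic receptors Adra1a, Adra1b and Adra1d, the α2-adrenergic receptor Adra2a, the muscarinic acetylcholine receptor Chrm2, and the receptor kinases Grk2 and Grk5. They were chosen by symbol, with no measured value in the rule, and each symbol matched 1 of the 55536 genes in the deposited gene tables. The study measured total RNA by sequencing in heart tissue of 2 male B6CASTF1/J mice, the first-generation hybrids of a C57BL/6 and a CAST strain, at 25 days of age. Neither animal carried a stated treatment or engineered allele. Each library was made from 300 ng of RNA with added ERCC spike-in RNA. The hearts are called replicate 1 and replicate 2, as in the labels, and they are animals 3 and 4 of the laboratory's tissue bank. The labels list both under 1 donor record, so nothing beyond the bank numbers shows that the spread between them is that between animals. Both hearts belong to 1 group, so no groups were compared and the spread given below is that of 2 libraries.

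Noradrenaline from sympathetic nerve endings and adrenaline from the blood raise the rate and force of the heartbeat, chiefly through β-receptors that couple to the stimulatory G protein, cyclic AMP and protein kinase A. The α1-receptors act through Gq and phospholipase C, and the M2 muscarinic receptor encoded by Chrm2 acts through inhibitory G proteins and the acetylcholine-gated potassium channel to slow the atria and the pacemaker. G protein-coupled receptor kinases phosphorylate occupied receptors, after which arrestins bind and signalling through the G protein ends.

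For Adra1a, Adrb3 and Adra1b the annotation holds alternatives that change the product or the start of the RNA. Their sequences are given first because the transcript results below turn on them. The pairs of coding ends were read from the GENCODE M21 transcripts. The last 24 bases shared by both transcripts of a pair are in lower case, and the bases that only that transcript has are in capitals, up to 48 of them and without the stop codon. The Adra1a pair parts after 1270 shared coding bases, leaving 128 own bases in Adra1a-201 and 11 in Adra1a-203. The Adrb3 pair parts after 1163 shared coding bases, leaving 37 own bases in Adrb3-201 and 49 in Adrb3-202.
Adra1a-201: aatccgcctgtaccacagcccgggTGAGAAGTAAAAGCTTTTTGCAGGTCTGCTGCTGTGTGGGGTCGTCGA
Adra1a-203: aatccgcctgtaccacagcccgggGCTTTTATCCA
Adrb3-201: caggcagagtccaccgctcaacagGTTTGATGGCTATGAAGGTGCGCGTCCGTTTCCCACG
Adrb3-202: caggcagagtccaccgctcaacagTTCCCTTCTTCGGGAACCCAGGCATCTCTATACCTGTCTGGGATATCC

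Adra1b has 2 annotated starts on the minus strand of chromosome 11. The RefSeq promoter table for GRCm38.p6, the build that mm10 names, holds a 300-base window at each, from 250 bases before the RefSeq start to 50 after it. The RefSeq starts, 43901237 and 43836489, differ from the GENCODE starts used for the transcript shares below, 43901210 and 43836332. The distal window includes its GENCODE start and the proximal window ends before reaching its own. Capitals mark matches on either strand to 4 short motifs: the TATAAA motif, the CCAAT motif, the GGGCGG motif and the CACGTG motif. No match overlaps another in these windows. The window of the distal start lies at chr11:43901188-43901487 and that of the proximal start at chr11:43836440-43836739. Both are written 5′ to 3′ along the gene.
Adra1b distal start: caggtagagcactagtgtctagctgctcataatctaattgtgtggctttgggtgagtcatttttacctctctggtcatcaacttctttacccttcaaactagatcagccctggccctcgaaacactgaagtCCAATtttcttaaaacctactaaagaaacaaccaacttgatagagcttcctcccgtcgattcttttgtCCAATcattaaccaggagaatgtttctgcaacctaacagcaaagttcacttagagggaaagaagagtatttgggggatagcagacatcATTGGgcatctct
Adra1b proximal start: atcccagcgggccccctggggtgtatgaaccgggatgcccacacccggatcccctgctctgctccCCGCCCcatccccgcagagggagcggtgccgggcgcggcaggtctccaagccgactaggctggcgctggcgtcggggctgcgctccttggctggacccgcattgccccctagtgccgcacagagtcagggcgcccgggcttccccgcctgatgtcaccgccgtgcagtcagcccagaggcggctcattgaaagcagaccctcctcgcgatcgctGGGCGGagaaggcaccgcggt

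The Adra1b windows differed in base composition. The distal window had 42.3% G and C, 3 CpG dinucleotides and 3 CCAAT matches. The proximal window had 71.3% G and C, 28 CpG dinucleotides and 2 GGGCGG matches. Over the 32851 promoters in the table the medians were 52.7% G and C and 7 CpG dinucleotides. CCAAT was present in 37.4% of those promoters, GGGCGG in 35.7%, TATAAA in 13.6% and CACGTG in 7.15%, so matches of the first 2 kinds are common, and a match is a run of letters, not a shown binding site.

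Depth was high and similar in both libraries, with 38253821 estimated counts assigned to genes in replicate 1 and 40655101 in replicate 2. At that depth 3 counts, the limit that a count of 0 allows, correspond to 0.0784 and 0.0738 CPM, which is counts relative to the library total. The 6 cardiomyocyte markers were at high levels in both hearts, with summed values of 22686 and 23944 TPM (a level per length of RNA, relative to all RNA in the library). Markers of atria and of ventricles were present in both. Of the 13 marker lists, the adipocyte list differed most between the hearts: its 6 genes summed to 238.78 TPM in replicate 1 and 34.61 TPM in replicate 2. In bulk tissue, fewer cells of a type and less RNA per cell cannot be told apart.

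The muscarinic receptor and the α1-receptors supplied most of the receptor RNA. Summed over the 7 receptor genes, the level was 61.76 TPM in replicate 1 and 69.85 TPM in replicate 2. The 3 α1 genes made up 44.1% ± 0.716 (SD, n = 2) of it, Chrm2 42.6% ± 1.17, the 2 β genes 13.2% ± 0.429 and Adra2a 0.115% ± 0.0207. A second deposited quantification of the same libraries gave 45.6% for the α1 genes, 41.2% for Chrm2, 13.1% for the β genes and 0.0988% for Adra2a. The order of the classes by mean share was thus the same in both quantifications, with the α1 genes and Chrm2 close together.

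Of the 9 genes, 7 reached 1 TPM in both hearts, all but Adrb3 and Adra2a. The share over all genes was 21.3%, and over protein-coding genes alone it was 49.5%. By mean TPM the order was Chrm2, Grk2, Adra1b, Adra1a, Grk5, Adrb1, Adra1d, Adrb3 and Adra2a. The ranges of the hearts overlapped for the neighbours Grk2 and Adra1b in both quantifications. Those of Grk5 and Adrb1 overlapped in the first, while in the second Adrb1 was the higher in both hearts, at 8.43 and 11.1 TPM against 7.74 and 7.16 TPM. The other 6 pairs of neighbours did not overlap in either quantification. TPM counts all RNA in the table, and rescaled to protein-coding genes outside the mitochondrial genome each mean was more than 1.5 times higher, from 75.4 TPM for Chrm2 to 0.201 TPM for Adra2a.

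**Figure D1:**
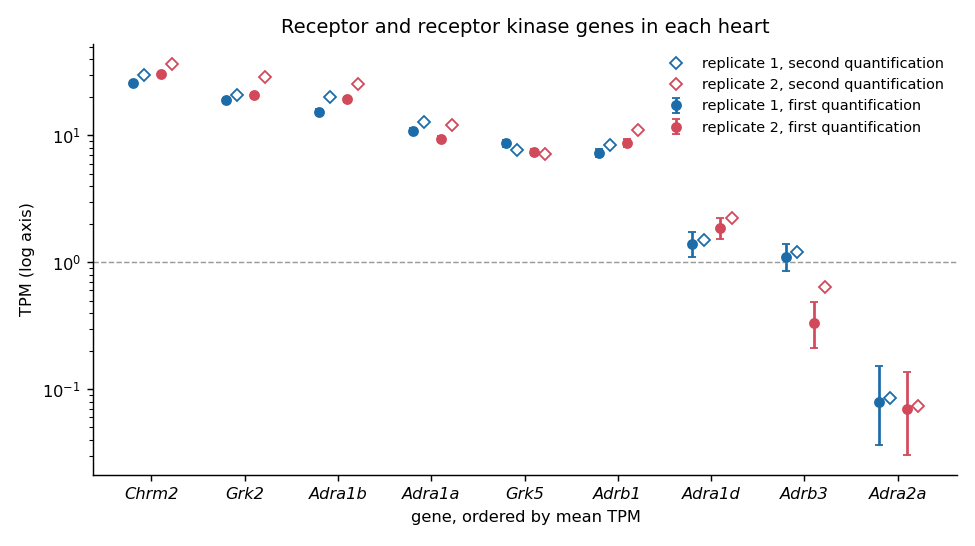
TPM of each gene on a log axis, with filled circles for the first quantification, open diamonds for the second, blue for replicate 1 and red for replicate 2. Bars are 95% Poisson intervals of the counts, and the dashed line marks 1 TPM; Chrm2 lies highest at 25.79 and 30.32 TPM and Adra2a lowest at 0.08 and 0.07 TPM.

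Adrb1 (ENSMUSG00000035283.5, chromosome 19, 56722199 to 56733113, plus strand, mm10) encodes the β1-receptor, the main β-receptor of heart muscle cells. It was at 7.25 TPM in replicate 1, from 658 counts, and at 8.69 TPM in replicate 2, from 840 counts, a mean of 7.97 ± 1.02 TPM (SD, n = 2). Replicate 2 was the higher, and 25.1% of protein-coding genes had a higher mean level. Nearly all of its RNA was the single-exon transcript Adrb1-201, which encodes 466 codons and took 96.3% ± 0.672 of the gene's TPM. The second transcript, Adrb1-202, has no coding sequence and was assigned 3 and 5 counts.

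Adrb3 (ENSMUSG00000031489.15, chromosome 8, 27225776 to 27250616, minus strand) encodes the β3-receptor, best known for driving fat breakdown in adipocytes. It was at 1.10 TPM in replicate 1, from 71 counts with a 95% Poisson interval of 55.5 to 89.6, and at 0.33 TPM in replicate 2, from 24 counts with an interval of 15.4 to 35.7. The intervals of the hearts did not overlap. The second quantification gave 1.21 and 0.642 TPM. Its 90.0 and 30.0 counts show the same direction, while the ratio of the TPM values is smaller than that of the counts: a transcript without coding sequence, Adrb3-204, carried 34.6% of the TPM in replicate 2 on 1 count. Within a heart, Adrb1 exceeded Adrb3 by 3.48 ± 1.23 on the log2(TPM + 0.1) scale.

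The β3 coding lengths were not equally used. Transcripts of 400 codons, Adrb3-201 and Adrb3-203, grouped by coding length, held 62.8 of the 71 counts in replicate 1 and 23.0 of the 24 in replicate 2. The 404-codon form, Adrb3-202, held 6.21 counts in replicate 1 and 0 in replicate 2. With 0 counts an upper limit of 3 counts applies in replicate 2, so a difference in the use of the 404-codon end between the hearts was not detectable at this depth. An antisense gene, Gm45470, shares 839 exon bases with Adrb3 and was at 0.03 and 0.01 TPM.

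Adra1b (ENSMUSG00000050541.14, chromosome 11, 43774606 to 43901210, minus strand) encodes the α1B-receptor. By TPM it was the highest of the adrenergic receptor genes in the set. It was at 15.35 TPM in replicate 1, from 1240 counts, and at 19.21 TPM in replicate 2, from 1552 counts, a mean of 17.3 ± 2.73 TPM. Only 13.6% of protein-coding genes had a higher mean. Within a heart it exceeded Adra1a by 0.77 ± 0.37 and Adra1d by 3.34 ± 0.05 on the log2(TPM + 0.1) scale. It also exceeded Adrb1 in both hearts, with a log2 ratio of Adrb1 over Adra1b of -1.10 ± 0.05. By counts the order with Adra1a was not the same in both hearts. Adra1a had 1389 counts in replicate 1, above Adra1b, and 1318 in replicate 2, below it. Adra1b-203, an incomplete transcript of 1764 bases, held 25.1% and 36.7% of the Adra1b counts but 37.2% and 50.7% of the TPM.

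How the Adra1b RNA divided between its starts depended on the quantification. In the first, the transcripts that begin at the proximal annotated start (43836332) took 56.1% ± 9.53 of the TPM, and those from the distal start (43901210) took 43.9% ± 9.53. In the second, the proximal start took 25.9% ± 3.70 and the distal start 74.1% ± 3.70. The lead of 1 start over the other therefore reversed between the tables, while in both tables the distal share was the higher in replicate 2, at 50.7% against 37.2% in the first and 76.7% against 71.5% in the second. Adra1b-202 and Adra1b-204, which both begin at the proximal start, have identical sequences, and the counts were split evenly between them, 464.59 each in replicate 1 and 491.01 each in replicate 2. The first table assigned 0 counts to Adra1b-201, the full-length coding transcript from the distal start, in both hearts, and the second assigned it 261.9 and 300.6. Adra1b-203, the highest single annotated transcript by TPM in both tables, has an incomplete coding sequence of 462 codons in the annotation.

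Adra1a (ENSMUSG00000045875.13, chromosome 14, 66635251 to 66771168, plus strand) encodes the α1A-receptor. It was at 10.80 TPM in replicate 1, from 1389 counts, and at 9.37 TPM in replicate 2, from 1318 counts, a mean of 10.1 ± 1.01 TPM. It was the only one of the 3 α1 genes with the lower value in replicate 2. Adra1a exceeded Adrb1 in both hearts, but the mean log2 ratio of Adrb1 over Adra1a, -0.34 ± 0.33, was barely larger than its SD.

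The 2 main α1A coding lengths were present in similar amounts. The 427-codon form, Adra1a-203, took 46.53% of the TPM in replicate 1 and 54.33% in replicate 2. The 466-codon form, which is Adra1a-201, Adra1a-202 and Adra1a-205 grouped by coding length, took 47.1% and 40.9%. The 466-codon form thus led by a small margin in replicate 1 and the 427-codon form led in replicate 2. In the second quantification the 427-codon form was ahead in both hearts, at 48.6% and 52.7% against 45.4% and 41.8%. The split of the 466-codon form over its 3 transcripts was less stable: Adra1a-205 took 1.66% ± 1.30 in the first table and 15.5% ± 4.72 in the second table. A 295-codon form, Adra1a-206, took 2.38% ± 1.92.

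Adra1d (ENSMUSG00000027335.9, chromosome 2, 131545850 to 131562283, minus strand) encodes the α1D-receptor, known mainly from arteries. It was at 1.39 TPM in replicate 1, from 82 counts, and at 1.86 TPM in replicate 2, from 118 counts, the lowest of the 3 α1 genes in both hearts. Adra1a exceeded it by 2.57 ± 0.42 on the log2(TPM + 0.1) scale. Its only annotated transcript encodes 562 codons. The antisense gene Gm14285 shares 147 exon bases with it and was listed at 0 TPM in both hearts.

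Adra2a (ENSMUSG00000033717.6, chromosome 19, 54044151 to 54048982, plus strand) encodes the α2A-receptor, which on sympathetic nerve endings restrains noradrenaline release. It had 9 counts in replicate 1, with a 95% Poisson interval of 4.12 to 17.1, and 8 counts in replicate 2, with an interval of 3.45 to 15.8. Each count lies above the limit of 3 counts set for a count of 0, and the levels were 0.08 and 0.07 TPM. The second quantification gave the same counts. All of them were assigned to Adra2a-202, which has 465 codons, as many as Adra2a-201.

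Chrm2 (ENSMUSG00000045613.9, chromosome 6, 36388084 to 36528414, plus strand) encodes the M2 muscarinic receptor, the target of the vagus nerve in the heart. It was at 25.79 TPM in replicate 1, from 4623 counts, and at 30.32 TPM in replicate 2, from 5826 counts, a mean of 28.1 ± 3.20 TPM, and 8.36% of protein-coding genes had a higher mean. Within a heart it exceeded Adrb1 by 1.80 ± 0.02 on the log2(TPM + 0.1) scale. In the first quantification that ratio was among the steadiest of the 10 compared: Chrm2 and Adrb1 were both higher in replicate 2 by similar amounts. The second quantification gave 1.77 ± 0.08. The coding transcript Chrm2-202, with 466 codons, took 97.9% ± 0.247 of the TPM.

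On the opposite strand, the long noncoding gene 9330158H04Rik shares 142 exon bases with Chrm2. It was at 17.76 TPM in replicate 1 and 20.23 TPM in replicate 2, a level not far below that of Chrm2. Whether the authors' counting used strand is not given in the sources used here, and reads in the shared bases could belong to either gene. The shared stretch is short beside the 5676 bases of Chrm2-202.

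Grk2 (ENSMUSG00000024858.14, chromosome 19, 4286001 to 4306222, minus strand) encodes the kinase that phosphorylates occupied β-receptors after recruitment by free G protein βγ subunits. It was at 18.91 TPM in replicate 1, from 1535 counts, and at 20.70 TPM in replicate 2, from 1834 counts, a mean of 19.8 ± 1.27 TPM. Grk5 (ENSMUSG00000003228.9, chromosome 19, 60889749 to 61095968, plus strand) encodes a membrane-associated receptor kinase. It was at 8.66 TPM in replicate 1, from 1104 counts, and at 7.38 TPM in replicate 2, from 1209 counts. Grk2 was the higher kinase in both hearts, with a log2 ratio of Grk5 over Grk2 of -1.30 ± 0.25, and it exceeded its nearest relative Grk3 by 3.13 ± 0.07.

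Short transcripts with few counts raised the TPM of both kinases. Grk2-207, an incomplete transcript of 261 bases, was assigned 22.9 and 22.3 counts yet took 22.9% and 18.9% of the gene's TPM, and the second quantification assigned it 0 counts. Grk2-202, with the full 689 codons, held 96.0% and 90.3% of the counts and was by itself at 13.76 and 14.37 TPM. Grk5-203, of 634 bases and 125 codons, held 5.09% and 2.51% of the counts but 37.2% and 21.9% of the TPM. Its larger share in replicate 1 accompanied the higher TPM of Grk5 in that heart, although the counts of the gene were no higher there. Grk5-201, with the full 590 codons, was by itself at 4.91 and 5.13 TPM, so its level differed little between the hearts. By the leading transcript alone Grk2 stood at 14.1 ± 0.431 TPM and Grk5 at 5.02 ± 0.156 TPM.

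**Figure D2:**
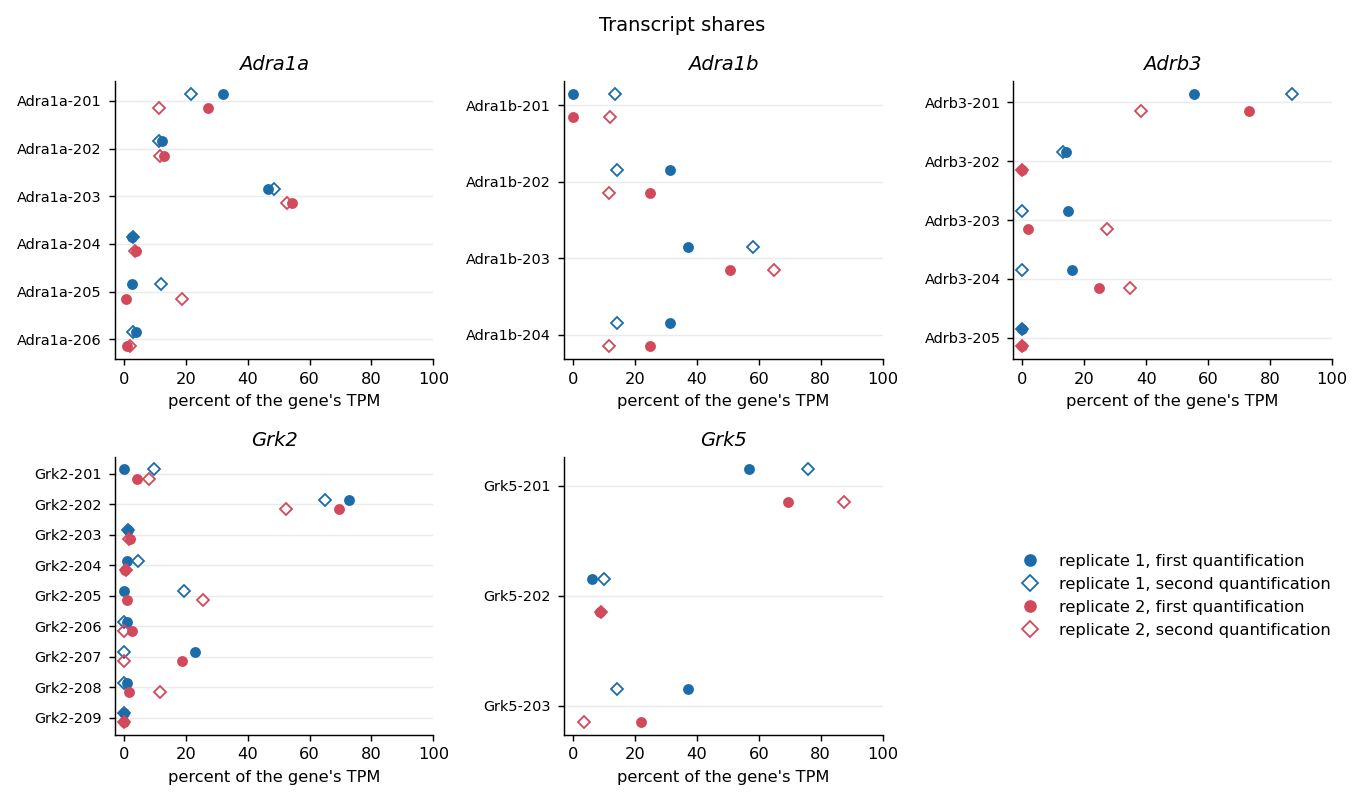
Share of the gene's TPM by annotated transcript for 5 genes; filled circles are the first quantification, open diamonds the second, blue replicate 1 and red replicate 2. Adra1a-203 lies between 46.5% and 54.3% in all 4 values, whereas Adra1b-203 ranges from 37.2% to 65.0% and Grk2-207 from 0% to 22.9%.

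Counting each annotated transcript by itself, the same one led by TPM in both hearts and in both quantifications for 9 of 9 genes. For Adra1b this rests on the split between 2 identical sequences. Taken as 1, Adra1b-202 and Adra1b-204 held 62.8% in replicate 1 of the first quantification against 37.2% for Adra1b-203, and 49.3% in replicate 2 against 50.7%, so the leading sequence differed between the hearts there. With identical sequences merged, a choice made after the data were seen, 8 of 9 genes had the same leading sequence throughout. In the first quantification the leading transcript held over 50% of the TPM in both hearts for 7 genes, the exceptions being Adra1a and Adra1b. In the second, Adra1b-203 held 58.0% and 65.0%, while Adrb3-201 held 87.1% and 38.1%.

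Differences between the hearts were small for all but Adrb3. They were measured as the log2 ratio of counts, replicate 2 over replicate 1, after scaling the libraries by the trimmed mean of M-values (TMM), with an exact binomial 95% interval that covers counting error only and compares these 2 libraries. Genes with at least 20 counts over both hearts were tested, which left out Adra2a with its 17. The interval lay clear of 0 for 6 of the 8 genes tested, and over all genes tested the share was 29.4%. Interval width follows depth, and the 8 genes had a median of 2510 counts over both hearts against 663 for all genes tested. Among genes with 1000 counts or more, a cut chosen after the data were seen, the share was 44.6%, and of the 6 receptor and kinase genes above that cut 5 were clear of 0. The second quantification also gave 6 genes clear of 0, against a share of 28.3%, with Adra1d in place of Grk2. The median absolute log2 ratio was 0.204 for the 8 genes and 0.141 for all genes tested.

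Of the genes higher in replicate 2, Chrm2 had a log2 ratio of 0.19 (interval 0.14 to 0.25), Adra1b 0.18 (0.08 to 0.29) and Adrb1 0.21 (0.06 to 0.36). Grk2 was higher by 0.12 (0.02 to 0.22). Adra1a was lower in replicate 2, at -0.21 (-0.32 to -0.11). Thus the 2 leading α1 genes moved in opposite directions between the hearts, each beyond counting error. Grk5 was level, at -0.01 (-0.13 to 0.11). Adra1d at 0.39 (-0.03 to 0.81) was not separated from 0, and the 17 counts of Adra2a left an interval of -1.88 to 1.24. Scaled instead by the spike-in RNA, by which the median of all genes moved to -0.14, Adrb1, Adra1b, Chrm2 and Grk2 were no longer clear of 0 and Grk5 was, at -0.15.

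**Figure D3:**
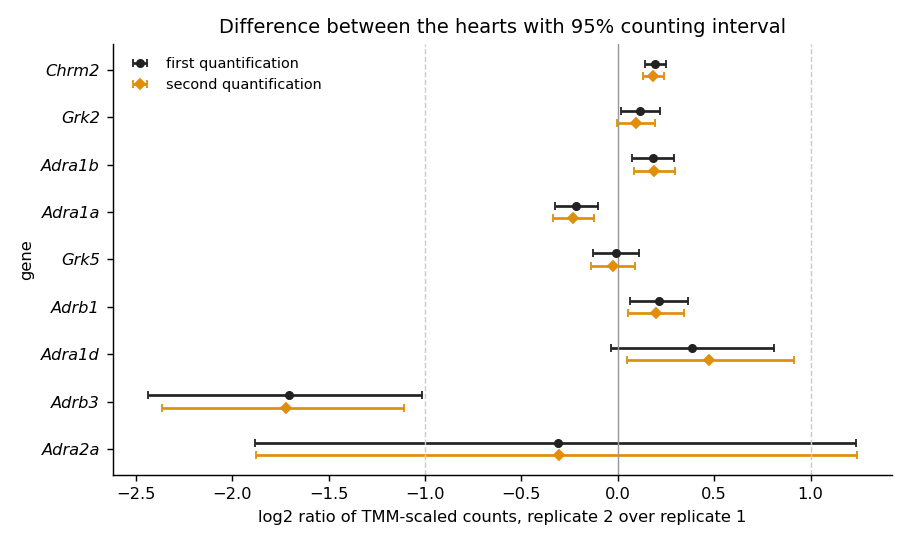
Log2 ratio of TMM-scaled counts, replicate 2 over replicate 1, for each gene, with 95% exact binomial intervals; black circles are the first quantification and orange diamonds the second, and dashed lines mark 2-fold. Adrb3 alone lies beyond 2-fold, at -1.70 and -1.72.

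Adrb3 was the 1 gene of 8 that differed by 2-fold or more, against 3.25% of all genes tested in the first table and 3.4% in the second table. It was 3.26-fold lower in replicate 2, a log2 ratio of -1.70 (interval -2.44 to -1.02), and the second quantification gave -1.72 (-2.37 to -1.11). Of the 510 genes that far apart, 199 were higher in replicate 2 and 311 higher in replicate 1, and under spike-in scaling the split was 140 against 446.

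Adipocyte markers moved with Adrb3. All 6 genes of that list were lower in replicate 2, with a median log2 ratio of -2.62 and a range from -3.02 for Cfd, which encodes the adipokine adipsin, to -0.46 for Lep, which encodes leptin. Of the 6, 5 differed by 2-fold or more, and none was at 0 in either heart. The brown adipocyte list, by contrast, summed to 20.85 TPM in replicate 1 and 19.52 TPM in replicate 2, and none of its 3 genes past the count filter was 2-fold apart. Of those genes Ucp1 alone was clear of 0, lower in replicate 2 at -0.44 (-0.72 to -0.16), and at -0.48 (-0.78 to -0.18) in the second quantification. Schwann cell markers summed to 10.99 and 4.35 TPM and platelet markers to 34.31 and 20.70 TPM, with 4 of 4 genes lower in replicate 2 in each list. Macrophage markers summed to 127.35 and 85.52 TPM, with 3 of 5 genes lower in replicate 2, of which Lyz2 and Adgre1 were clear of 0. Most of the change in that sum was Lyz2, at 83.06 and 42.39 TPM. Mrc1 of the same list was clear of 0 the other way, at 0.16 (0.03 to 0.28). The part of any of these in the Adrb3 difference was not tested. Beside Chrm2, which was higher in replicate 2, the atrial list was slightly lower there, with 5 of 6 genes clear of 0 and sums of 1706 and 1603 TPM. The ventricular list was higher there, at 9755 and 10803 TPM with 3 of 4 genes clear of 0. So was the endothelial list, at 147.97 and 169.25 TPM with 5 of 5. The share clear of 0 in either direction was 29.4% of all genes tested and 44.6% of those with 1000 counts or more.

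**Figure D4:**
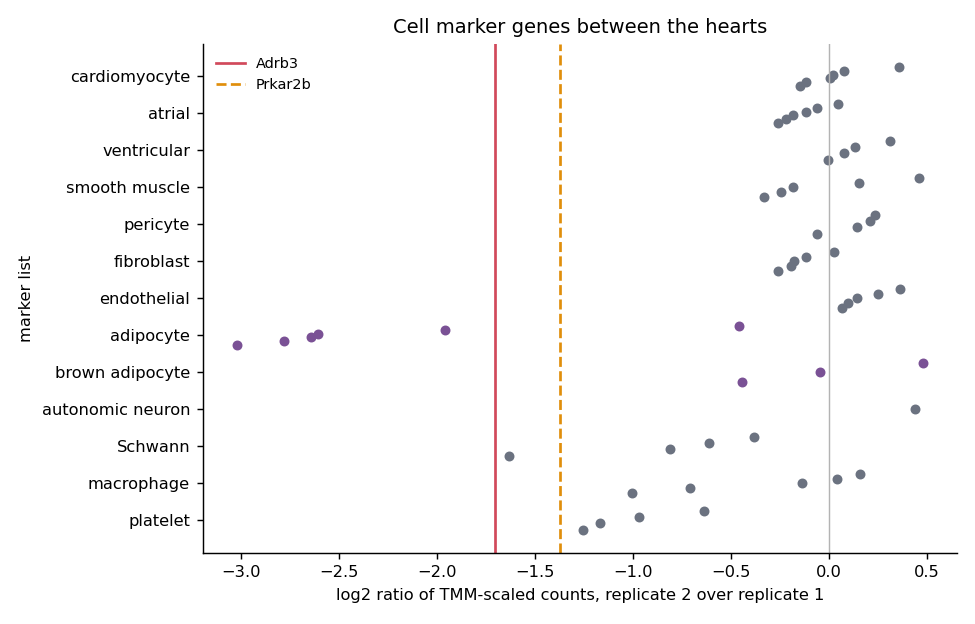
Log2 ratio of TMM-scaled counts, replicate 2 over replicate 1, for each marker gene with at least 20 counts over both hearts, by marker list; the adipocyte lists are in purple. The red line is Adrb3 at -1.70 and the dashed orange line is Prkar2b at -1.37, and 5 of 6 adipocyte markers lie to the left of both.

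Other receptor genes of the families, as far as listed here, were low. None of 6 reached 1 TPM in both hearts, against 49.5% of protein-coding genes. Chrm3, the M3 receptor of smooth muscle and glands, was at 0.38 and 0.30 TPM, Adra2b at 0.20 and 0.22 TPM and Adra2c at 0.13 and 0.12 TPM. Chrm1 had 1 and 2 counts. Chrm4 and Chrm5 had 0 counts in both hearts, for which the set limit is 3 counts in each library. The second quantification gave Chrm4 1 count in replicate 1. Chrm2 was thus the only 1 of the 5 muscarinic genes above 1 TPM in these hearts, and Adra2a, Adra2b and Adra2c were all below 1 TPM.

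Of the G protein list, 15 of 17 genes were at 1 TPM or more in both hearts. The share was 49.5% over protein-coding genes and 21.3% over all genes, and the counts of the lists below stand beside the same shares. Gnas, which encodes the stimulatory α subunit that β-receptors use, was highest at 411.95 and 418.47 TPM. Gnb2, a β subunit, followed at 83.27 and 88.08 TPM, and Gnai2, an inhibitory α subunit that M2 receptors can use, at 75.36 and 86.07 TPM. Gng7 was lowest at 0.12 TPM in both hearts. No gene of the list was 2-fold apart, and 7 of 17 were clear of 0, against 29.4% of all genes tested and 44.6% of those with 1000 counts or more.

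Downstream of the β-receptors, 10 of 12 protein kinase A subunit and anchor genes and 8 of 8 genes for its substrates reached 1 TPM in both hearts. The catalytic subunit Prkaca was at 115.40 and 126.28 TPM, the regulatory subunit Prkar1a at 106.73 and 118.04 TPM and the mitochondrial anchor Akap1 at 45.98 and 43.91 TPM. The substrates Tnni3, cardiac troponin I, at 3318.94 and 3476.92 TPM, Pln, phospholamban, at 2023.56 and 2159.47 TPM, and Mybpc3, cardiac myosin-binding protein C, at 494.72 and 577.89 TPM stood far above every receptor gene. Ppp1r1a, a phosphatase inhibitor that the kinase activates, was the lowest substrate at 4.88 and 4.31 TPM.

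Of the 80 listed pathway genes, 70 passed the count filter, and Prkar2b and Akap5 were the only ones of these 2-fold or more apart between the hearts. Prkar2b, a regulatory subunit that is abundant in adipose and nervous tissue, had 445 counts in replicate 1 against 189 in the other heart, which is -1.37 on the log2 scale (interval -1.63 to -1.13), the same direction as Adrb3 and the adipocyte list. Akap5, an anchor that binds β-receptors and the kinase, had 73 and 167 counts and went the other way, at 1.05 (0.65 to 1.47). Of the 70, 31 were clear of 0, against 29.4% of all genes tested and 44.6% of those with 1000 counts or more.

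For the α1-receptors, 7 of 8 genes of the Gq effector list reached 1 TPM in both hearts. The phospholipase Plcb4 was highest at 22.56 and 25.49 TPM, before the protein kinases C Prkca at 11.95 and 14.20 TPM and Prkce at 8.49 and 9.28 TPM. Plcb2 was lowest at 0.83 and 0.99 TPM. For Chrm2, both channel subunit genes were present at nearly equal levels in the first quantification: Kcnj3 at 18.38 and 18.95 TPM and Kcnj5 at 17.96 and 18.17 TPM. In the second, Kcnj5 was the lower in both hearts, with a log2 ratio of Kcnj5 over Kcnj3 of -0.27 ± 0.03. Neither gene differed between the hearts beyond counting error.

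In the desensitization list, which holds the other receptor kinases, arrestins and RGS proteins that speed the turn-off of G proteins, 9 of 12 genes reached 1 TPM in both hearts. Rgs2 was highest at 12.03 and 14.74 TPM, followed by Rgs3 at 10.75 and 9.97 TPM and the arrestin Arrb1 at 8.82 and 9.43 TPM. The lowest by mean TPM in the first quantification, Grk1, the kinase of rod photoreceptors, had 1 and 3 counts. The second quantification gave Grk1 57.7 and 78.4 counts, at 0.249 and 0.358 TPM, so its level was not settled. All 12 were below Grk2 in both hearts. Grk6, at 6.42 and 6.25 TPM, was below Grk5 in both hearts, but in the second quantification it was at 7.46 and 7.86 TPM against 7.74 and 7.16 TPM for Grk5, so the order of these kinases was not settled.

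Genes that make, store or clear the transmitters were mostly low in the RNA of this heart tissue. Of the noradrenaline list 3 of 10 reached 1 TPM in both hearts, among them the monoamine oxidase Maob, at 9.40 and 10.52 TPM, and the uptake carrier Slc22a3, at 2.11 and 2.51 TPM. The neuronal transporter Slc6a2 had 4 and 6 counts and Th, the first enzyme of synthesis, 2 and 1. Dbh, like Th an autonomic neuron marker, had more, with 55 and 82 counts, at 0.69 and 0.95 TPM. Of the acetylcholine list only Bche, butyrylcholinesterase, reached 1 TPM, at 3.92 and 5.18 TPM, while Ache was at 0.68 and 0.79 TPM, the choline carrier Slc5a7 had 9 and 7 counts and Chat 1 and 0. In all, 55 of the 80 pathway genes reached 1 TPM in both hearts, against 49.5% of protein-coding genes and 21.3% of all genes.

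**Figure D5:**
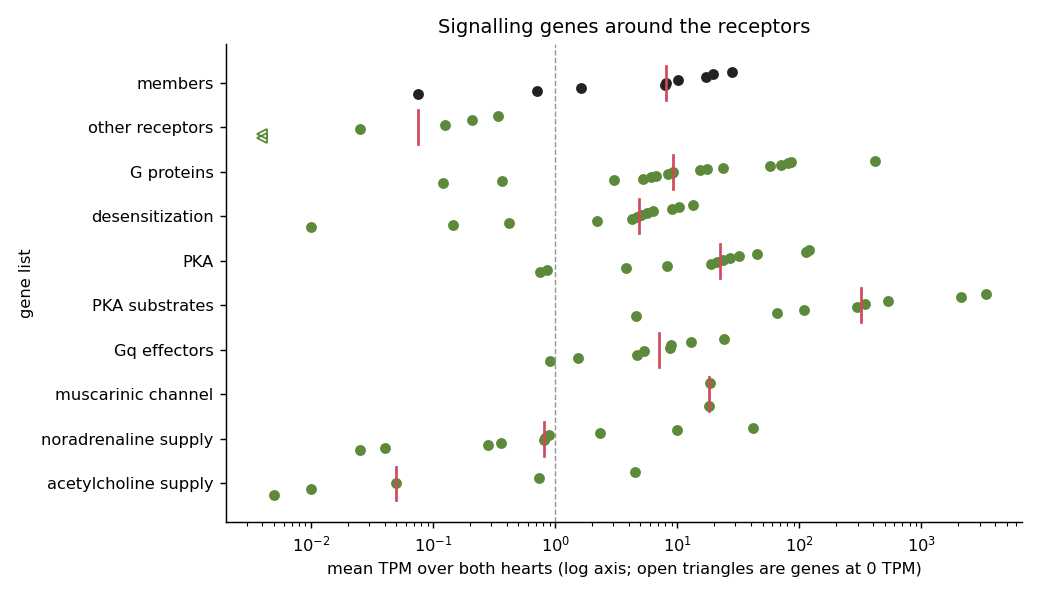
Mean TPM over both hearts on a log axis for the 9 receptor and kinase genes (members, black) and 9 lists of signalling genes (green); red bars are medians, the dashed line marks 1 TPM and open triangles are the 2 genes at 0 TPM. Protein kinase A substrates reach furthest right, and the other receptors and the transmitter supply lists lie mostly below 1 TPM.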

How the data were processed

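Total RNA-seq of 2 hearts was analysed. The authors deposited, for each library, a gene and a transcript table with estimated counts (expected counts, not whole numbers) and TPM, and a further transcript table, from a second quantification, with counts and TPM of its own. Per the file headers and accompanying notes the assembly is mm10 with GENCODE M21. The aligner, quantifier and strand setting: not given in the sources used here. Reads of the CAST alleles were quantified against the mm10 sequence.

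Symbols were matched to gene identifiers through the transcript names, and the second table was summed per gene. Its transcripts hold no entry for 86 genes, none of them described. Transcript shares are percent of a gene's TPM. For the first quantification the deposited percentages were used, and for the second they were computed from the deposited TPM. Counts were rounded for ratios and scaled by TMM in edgeR 4.0.16 (R 4.3.3). Genes needed 20 counts summed over both hearts. Exact binomial and Poisson 95% intervals (scipy 1.17.1) cover counting error only. Pair ratios used a pseudocount of 0.1 TPM. The smallest p that an exact sign-flip test over 2 hearts allows is 0.5, so none was run. Spike-in and transfer RNA rows were kept out of the gene totals.

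Named were the 9 genes, all listed other receptors, the 3 highest and the lowest of each other pathway list, pathway genes 2-fold apart, and values for the highest and lowest markers where a result touches them. A gene that this rule names is not reported here. The genes and lists were chosen with earlier results of these data known. Alternatives were total counts, spike-in totals, DESeq2 1.42.0 size factors, the second quantification, posterior mean TPM, other thresholds and pseudocounts, TPM of protein-coding genes and each heart alone. The leading transcript alone, identical transcripts merged and the share among genes with 1000 counts or more were added after the data were seen. Promoter windows came from the RefSeq table, which held 6 windows for 5 of the 9 genes.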

Additional observations from a re-analysis of the deposited data

How the results depend on the processing

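Under the alternatives run for them, 6 to 8 of the 9 genes and 54 to 62 of the 80 pathway genes reached the level asked for, all 10 pair ratios were counted, and the leading transcript was the same in both hearts for 9 genes, or for 8 with identical Adra1b sequences merged. The number of receptor and kinase genes clear of 0 between the hearts was 3 with spike-in totals, against 6. Under that scaling Grk2 reversed to -0.027, and under total counts Grk5 reversed to 0.043, both within counting error of 0. The number of genes 2-fold apart was 157 with a mean of at least 1 CPM and 6019 with 1 count or more, against 510, and fewer or more genes are tested by construction. Adra1d cleared 0 under total counts (0.44) and in the second quantification (0.48). By the leading transcript alone, added after the data were seen, the mean of Adra1a was 5.06 TPM and that of Adra1b 7.73 TPM. With 1 heart at a time 7 or 8 genes reached 1 TPM, the eighth being Adrb3 in replicate 1, and Adrb3 was at 1.10 or 0.33 TPM. No paired analysis was possible because both hearts belong to 1 group. Depth limits what can be said of Adra2a, Adrb3 transcripts and the lowest receptor genes, and 2 libraries limit the rest.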
